A study of Mus musculus with 4 samples.

Results

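The adrenoceptor genes are the family that encodes the receptors for noradrenaline and adrenaline. The 8 genes listed were Adra1a, Adra1b, Adra1d, Adra2a, Adra2b, Adra2c, Adrb1 and Adrb3, and every array probe whose RefSeq accession belongs to one of them was taken. That gave 12 probes for 7 genes, of 41174 probes and 18217 named genes on the array. No probe on these arrays was matched to Adrb3, so that gene has no value here. Of the 12 probes, 7 were bright enough to be tested, and these covered 4 genes: Adra1b, Adra1d, Adra2a and Adrb1. Adra1b and Adra2a were lower in the channel labelled RapCA, Adra1d was slightly higher, and Adrb1 did not pass the test. Adra1a and Adra2b lay at the edge of detection, and Adra2c was not well above background in either channel on any array.

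Adrenoceptors are seven-helix receptors that signal through G proteins. In blood vessel smooth muscle the alpha1 receptors act mainly through Gq, phospholipase C and calcium to contract the cell. The alpha2 receptors act through Gi to lower cyclic AMP, and the beta receptors act through Gs to raise it and relax the cell. In small arteries of the skin the alpha2C receptor, product of Adra2c, is known for being held inside the smooth muscle cell and moved to the surface on cooling. Cyclic AMP acting through the exchange factor Epac and the small GTPase Rap1A is another route known to bring it there, with filamin taking part.

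The cells were mouse microvascular smooth muscle cells labelled as derived from Rap1a knockout animals, from male C57BL6 mice, in both groups alike. One group carried an empty shuttle vector and the other a shuttle vector named RapCA, a name the labels do not spell out and the title presents as a rescue. All cells had been grown in 10% serum, met the virus overnight without serum at plating, and were then left for 48 h in 0.5% serum; the age of the animals is not given in the sources used here. On 1 slide, 4 arrays were each hybridised with empty vector RNA in Cy5 and RapCA RNA in Cy3, and since dyes were never swapped, an effect of dye cannot be told apart from one of condition. The labels name the arrays biological replicates but not whether cultures or animals were separate, so p-values measure only the spread between these samples, which may be technical. In such bulk RNA, fewer cells of a type and less RNA per cell cannot be told apart. A level is the log2 signal of a channel after normalization, and a ratio is the log2 of the RapCA channel over the vector channel, so that a negative ratio means less signal in the channel labelled RapCA.

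The targeted gene had less signal in the channel labelled RapCA. Rap1a, the small GTPase, had ratios of -0.46, -1.02, -1.31 and -1.47 on replicates 1 to 4 (mean -1.06 ± 0.44, SD, n = 4; limma adjusted p = 0.00204), so RapCA was the dimmer side on each array. Its 1 probe was flagged well above background throughout, and where it lies relative to the deleted part of the gene or to the vector's sequence is not known here. The probe can therefore not serve to check the labels. Every direction in the text rests on the dye labels, and all would turn if those were exchanged. Replicate 1 stood apart: over all tested probes its ratios gave correlations of 0.69 to 0.78 with each other array, against 0.93 to 0.98 among the other arrays, where probes are not independent replicates. Per array, 57.7% to 62.9% of probes in Cy3 and 51.3% to 61.9% in Cy5 were well above background. Of the 10 smooth muscle markers, 8 were well above background in every channel and Des and Myocd in none.

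Markers of other cell types were also read. Their summed net signals are not normalized, and the brightest genes weigh most in a sum. The median net signal over all probes was 34.5 to 42 per array in Cy3 (RapCA) and 36 to 81 in Cy5 (vector). The sums are therefore not a measure of difference between the channels, while the ratios given are normalized. Of the 6 fibroblast markers, 5 were well above background, with Lum on no array, and 4 of these were called higher in RapCA. Over all genes tested, 28.9% were called higher and 24.9% lower at a limma adjusted p under 0.05. The summed net signal of the fibroblast markers was 222322 to 275699 in the RapCA channel and 75292 to 129098 in the vector channel. The summed signal of the 10 smooth muscle markers was 272771 to 381700 and 262218 to 346634 in the same order, with 5 of 8 tested higher. Several endothelial, adipocyte, neuronal and leukocyte genes were at background: Pecam1, Cdh5, Emcn, Adipoq, Plin1, Lep, Snap25, Syt1, Gfap, Ptprc and Adgre1 were well above it on no array. Other members of these lists, such as Kdr, Fabp4, Tubb3 and Cd3e, were well above it on all 4 arrays in both channels. Pericyte markers summed to 1192 to 1521 in the RapCA channel and 227 to 350 in the vector channel. Among them Notch3 and Mcam were higher at 2.79 ± 0.50 and 2.30 ± 0.30, Kcnj8 was lower at -0.40 ± 0.08 (limma adjusted p = 0.0115), and Rgs5 and Abcc9 were above background on no array. Heart and skeletal muscle markers summed to 200 to 311 and 374 to 811 (Myh6, Myh7, Actn2 and Ckm on no array). Tnnt2 of that list was well above background on all 4 arrays in both channels, and lower at -0.70 ± 0.16 (limma adjusted p = 0.00158). Summed signals in the same order were 198 to 237 and 145 to 585 for endothelial, 355 to 440 and 809 to 2151 for adipocyte, 1907 to 2553 and 1824 to 2184 for neuronal and glial, and 81 to 128 and 132 to 172 for leukocyte markers. The part of cells of other types in the adrenoceptor ratios was not tested.

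The 250 bases before the annotated start sites are shown for Adra1b and Adra2a, the genes with the largest ratios, and for Adra2c, which was not detected. They come from RefSeq on GRCm38.p6, a different build from the one the array files name, and 5 of the 8 genes had an entry, with 6 start sites. Capitals mark matches on either strand to the short cyclic AMP site TGACG, the AP-1 site TGANTCA, the TATA box TATAAA, the GC box GGGCGG and the E-box CACGTG. Adra1b on the minus strand of chr11:43901238-43901487, Adra1b again on the minus strand of chr11:43836490-43836739, Adra2a on the plus strand of chr19:54045009-54045258 and Adra2c on the plus strand of chr5:35278316-35278565 read, 5′ to 3′:
Adra1b, first start site: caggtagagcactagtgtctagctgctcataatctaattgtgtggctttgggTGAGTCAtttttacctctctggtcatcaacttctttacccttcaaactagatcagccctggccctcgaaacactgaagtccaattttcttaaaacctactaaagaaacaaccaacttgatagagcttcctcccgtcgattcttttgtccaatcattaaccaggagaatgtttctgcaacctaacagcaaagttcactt
Adra1b, other start site: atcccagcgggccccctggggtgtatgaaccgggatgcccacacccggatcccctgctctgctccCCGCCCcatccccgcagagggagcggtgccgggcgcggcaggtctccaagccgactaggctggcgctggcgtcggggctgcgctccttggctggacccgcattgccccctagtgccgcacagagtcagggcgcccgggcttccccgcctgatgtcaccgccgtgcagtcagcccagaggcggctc
Adra2a: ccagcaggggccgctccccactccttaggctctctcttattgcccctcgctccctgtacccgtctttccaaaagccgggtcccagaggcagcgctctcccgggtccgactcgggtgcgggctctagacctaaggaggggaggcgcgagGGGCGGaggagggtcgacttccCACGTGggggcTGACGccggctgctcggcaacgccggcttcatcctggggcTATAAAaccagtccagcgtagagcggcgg
Adra2c: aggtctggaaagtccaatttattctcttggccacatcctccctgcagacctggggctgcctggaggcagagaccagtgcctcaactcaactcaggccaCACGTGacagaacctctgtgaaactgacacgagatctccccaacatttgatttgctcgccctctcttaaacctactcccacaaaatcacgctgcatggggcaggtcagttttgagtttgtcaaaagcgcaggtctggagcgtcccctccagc

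The start sites differed in base composition and motifs. The window before the first Adra1b start site was 41.6% G and C, and its one match was an AP-1 site beginning 198 bases before the start. The window before the other Adra1b start site was 72.8% G and C and held a GC box on the opposite strand. The Adra2a window, at 67.6% G and C, held a TATA box 29 bases before the start, a short cyclic AMP site at 69, an E-box at 80 and a GC box at 102. Adra2c, at 53.6%, held only an E-box, 152 bases before its start. Over all 32851 windows of the same length the median was 52.4% G and C, and 17.8% held the short cyclic AMP site, 6.75% an AP-1 site, 12.4% a TATA box, 32.7% a GC box and 6.02% an E-box. The full cyclic AMP response element TGACGTCA, which contains the short one, was in 1.55% of them and in none of the 6 adrenoceptor windows. Of the windows not printed, Adrb1 held a short cyclic AMP site and a GC box, and Adra2b held 2 GC boxes. A match is a description of letters only.

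The probes differed widely in brightness. A probe counted as well above background by the scanner software's own flag, and was tested when that held on all 4 arrays in at least 1 channel. All 7 tested adrenoceptor probes met this in both channels, 2 met it on no array in either, and the other 3 met it on some. At gene level 4 of 7 adrenoceptors were tested, or 57.1%, against 68% of all genes with a probe and 5 of 20 (25%) among receptors for dopamine, serotonin, histamine and acetylcholine and the trace amine receptor Taar1. Levels are not compared between probes, since each probe has its own brightness.

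**Figure D1:**
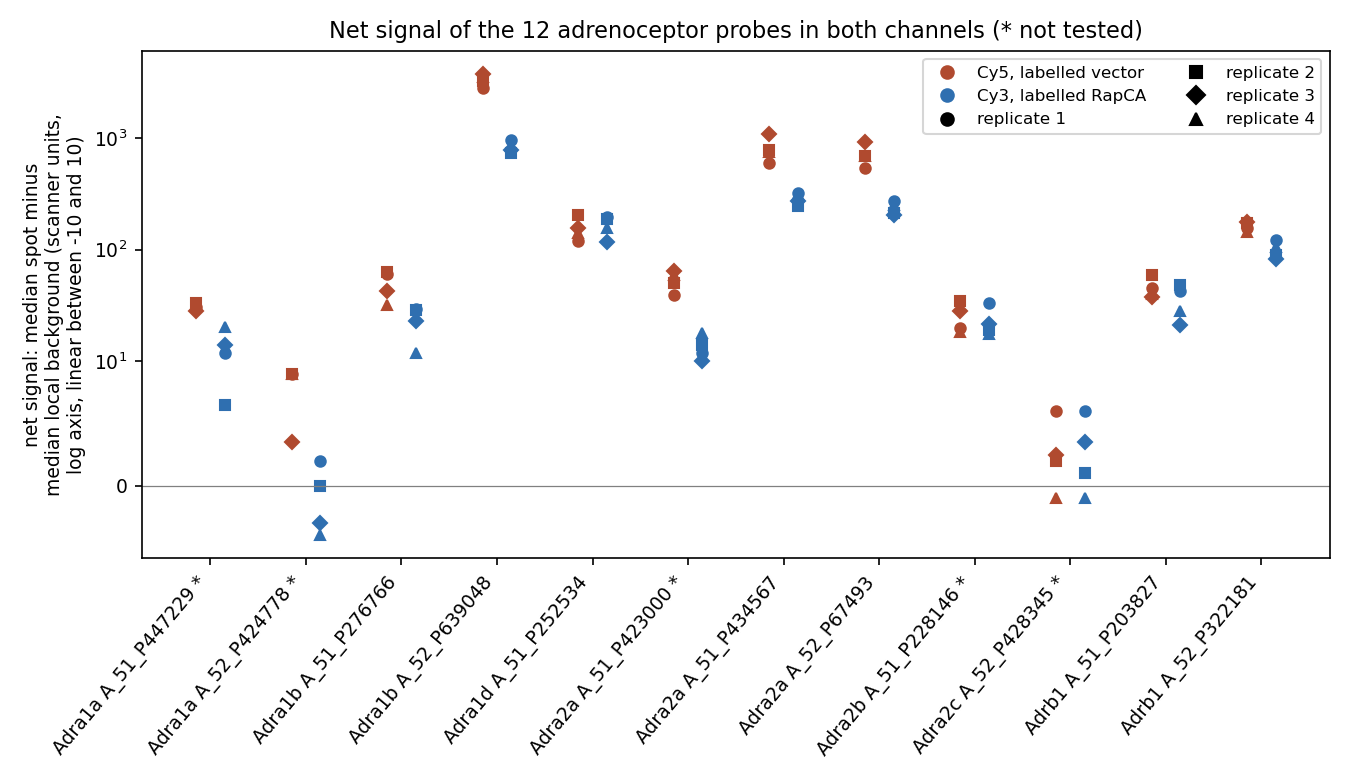
Net signal (median spot minus median local background, scanner units, logarithmic axis with a linear stretch around 0) of the 12 adrenoceptor probes, in red for the Cy5 channel labelled vector and in blue for the Cy3 channel labelled RapCA, with 1 symbol per replicate. The brighter Adra1b probe lies between 2806 and 3750 in Cy5 and between 727 and 957.5 in Cy3, while the Adra2c probe lies between -1 and 6 in both; the channels are not yet normalized here.

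Of the 4 adrenoceptor genes tested, taking the brightest probe of each, 2 were called lower (24.9% of all genes were) and 1 higher (28.9% of all genes were) at a limma adjusted p under 0.05. Together 3 of 4 passed, where 53.9% of all 12388 genes tested passed, so a call is common in these data. At probe level 3 of 7 were called lower (23.2% of all probes) and 1 higher (26.4%), where 49.6% of the 23497 probes tested were called in either direction. The median ratio of the 4 genes was -0.50, against 0.019 over all genes.

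Among the alpha1 receptors, Adra1b was the gene with the largest difference. It encodes the alpha1B receptor, which raises calcium in vascular and liver cells. Its brighter probe, A_52_P639048, had levels of 12.12, 11.06, 11.30 and 11.38 in the vector channel on replicates 1 to 4 and of 10.20, 9.70, 10.08 and 10.11 in the RapCA channel. The groups did not overlap, and the RapCA value was the lower on every array. The ratios were -1.92, -1.36, -1.22 and -1.27, a mean of -1.44 ± 0.33 (SD, n = 4), or 2.72-fold lower (limma adjusted p = 0.000238). That call held under all 14 alternatives, with ratios from -1.64 to -1.28.

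The other Adra1b probe, A_51_P276766, gave a much smaller difference. Its net signals were only 29.5, 29, 23 and 12 in the RapCA channel and 61, 63, 43 and 32 in the vector channel, against 727 or more at the brighter probe, although its flags placed it well above background throughout. Its ratios were -0.54, -0.061, 0.11 and -0.10, a mean of -0.15 ± 0.28 (95% interval -0.45 to 0.16; limma adjusted p = 0.377). The levels overlapped between channels, and replicate 1 carried most of the difference. The scanner software's own ratio put it at -0.82 (adjusted p = 0.0530), and without replicate 1 it was -0.017. Both probes are assigned to the same transcript accession, NM_007416, and where each lies on it is not known here.

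Adra1d encodes the alpha1D receptor, a receptor that contracts arteries. Its levels were 8.16, 7.56, 7.34 and 7.32 in the vector channel and 8.25, 8.05, 7.76 and 7.98 in the RapCA channel. The RapCA value was higher on every array, but the groups overlapped because the normalized level of replicate 1 was high in the vector channel. Before normalization its net signal there, 118.5, was the lowest of the arrays. Its ratios of 0.096, 0.50, 0.42 and 0.66 gave a mean of 0.42 ± 0.24, or 1.34-fold higher (limma adjusted p = 0.0239). The call did not hold with median centring in place of loess (0.32, adjusted p = 0.115), with channels unpaired (adjusted p = 0.116), or without replicate 2, 3 or 4 (adjusted p = 0.119, 0.1004 and 0.0908).

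Adra1a encodes the alpha1A receptor, which contracts resistance arteries and the prostate. Neither of its probes was tested. A_51_P447229 had net signals of 12, 6.5, 14 and 20.5 in the RapCA channel and 31, 33.5, 28 and 31.5 in the vector channel, and in each channel it was well above background on 2 of 4 arrays. These signals lie at the lower end of what the flag accepts: among all probes flagged in Cy5, the 5th percentile of net signal was 33.5 to 40.5 over the arrays. A_52_P424778 was well above background on no array, with net signals of -4 to 2 in the RapCA channel and 3.5 to 9 in the vector channel. No difference between the groups can be given for Adra1a at this signal.

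**Figure D2:**
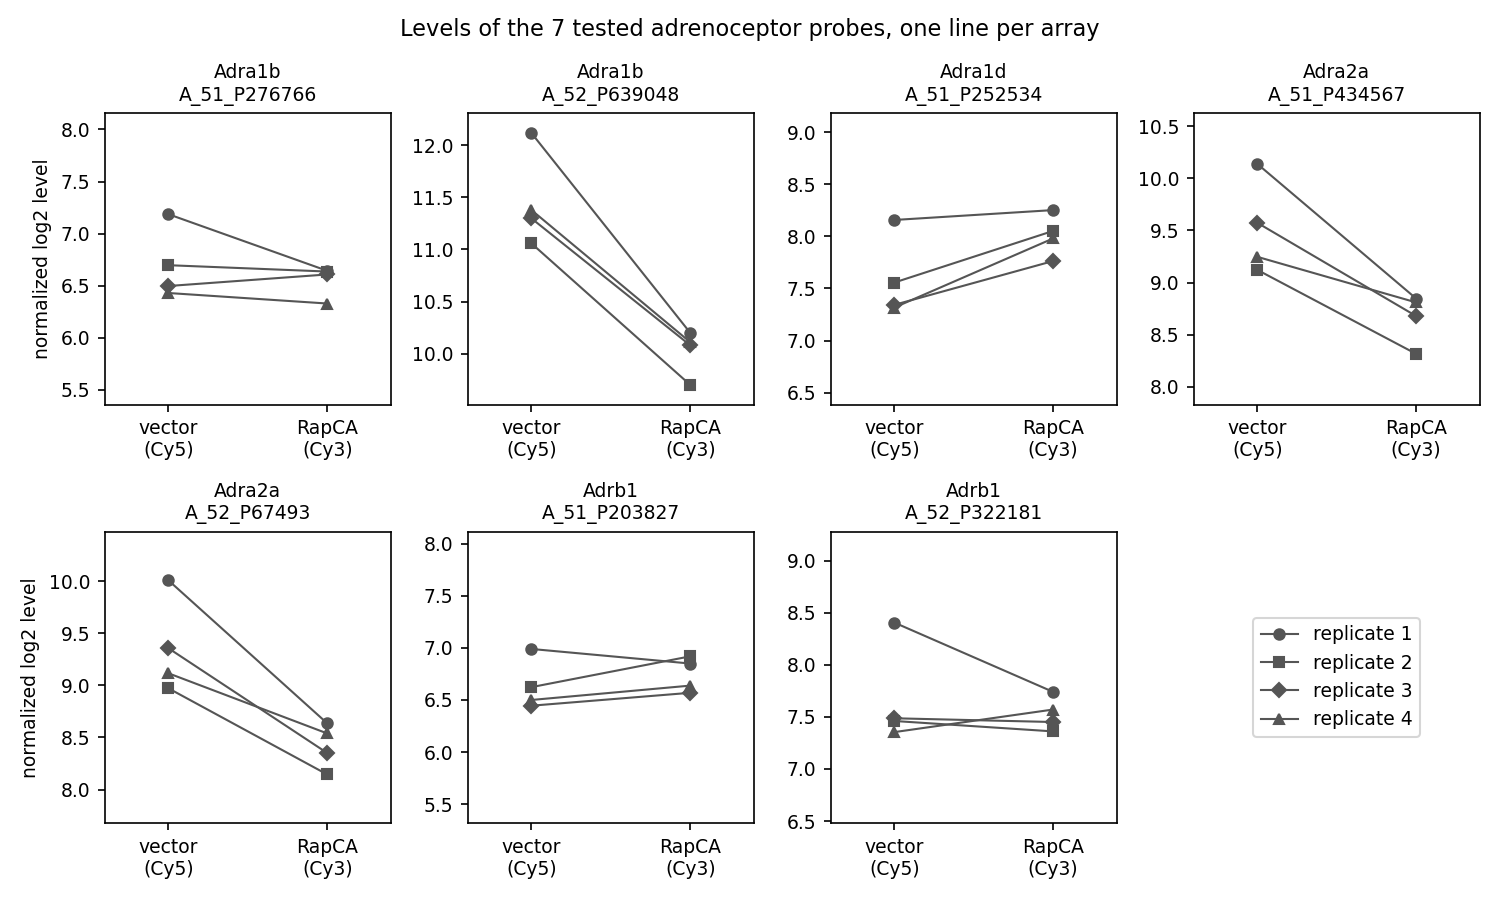
Normalized log2 level of each of the 7 tested adrenoceptor probes in the channel labelled vector (Cy5, left) and the channel labelled RapCA (Cy3, right), with a line for each array; every panel spans the same number of log2 units. All 4 lines fall for the brighter Adra1b probe and for both Adra2a probes, all 4 rise for Adra1d, and the lines of the Adrb1 probes run in both directions.

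Among the alpha2 receptors, Adra2a was the one with probes that passed the filter on dim signal. It encodes the alpha2A receptor, which inhibits noradrenaline release at nerve endings and constricts vessels. Probe A_52_P67493 had levels of 10.01, 8.97, 9.36 and 9.12 in the vector channel and 8.64, 8.14, 8.35 and 8.54 in the RapCA channel. Every RapCA value lay below every vector value. The ratios were -1.37, -0.83, -1.01 and -0.58, a mean of -0.95 ± 0.33 (SD, n = 4), or 1.93-fold lower (limma adjusted p = 0.00153).

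The second bright Adra2a probe, A_51_P434567, gave nearly the same difference. As the brightest of the gene, it is the probe counted at gene level. Its levels were 10.14, 9.12, 9.57 and 9.25 in the vector channel and 8.85, 8.32, 8.68 and 8.81 in the RapCA channel, again without overlap. Its ratios were -1.29, -0.81, -0.90 and -0.44, a mean of -0.86 ± 0.35 (limma adjusted p = 0.00269). The calls of both probes held under all 14 alternatives. The third probe, A_51_P423000, was dim, with net signals of 12, 14, 10 and 18 in the RapCA channel and 39.5, 50, 65 and 59.5 in the vector channel. It was well above background on 1 of 4 arrays in the RapCA channel and on 3 in the vector channel, and so it was not tested. Its ratios were -0.44, -0.23, -0.39 and -0.28, also below 0 on all 4 arrays; with no filter on dim probes its adjusted p was 0.0119.

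Adra2b encodes the alpha2B receptor, a vasoconstrictor receptor of arterial smooth muscle. Its 1 probe had net signals of 33, 19, 21.5 and 17.5 in the RapCA channel and 20, 35, 28.5 and 18.5 in the vector channel, which overlapped. It was well above background on 3 of 4 arrays in the RapCA channel and on 2 in the vector channel, and was not tested. Its ratios were 0.22, 0.052, 0.24 and 0.21, with an adjusted p of 0.0792 when the filter on dim probes was dropped.

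Adra2c, the alpha2C gene, gave no signal that could be told from background. Its 1 probe, A_52_P428345, had net signals of 6, 1, 3.5 and -1 in the RapCA channel and of 6, 2, 2.5 and -1 in the vector channel. In net signal both channels rose and fell together over the arrays, and neither was higher throughout. After normalization the ratios were 0.093, 0.057, 0.14 and 0.045, above 0 on all 4 arrays. With no filter on dim probes the limma adjusted p was 0.323. The scanner software flagged the probe neither well above background nor positive and significant on any array in either channel. For scale, the 5th percentile of net signal among probes flagged well above background was 14 to 26 in Cy3, depending on the array. A difference in Adra2c transcript between the groups was therefore not detectable with this probe, which does not show that the transcript was absent or equal.

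The beta receptor measured was Adrb1, which encodes the beta1 receptor, the main beta receptor of the heart. Its brighter probe, A_52_P322181, had levels of 8.41, 7.46, 7.49 and 7.35 in the vector channel and 7.74, 7.36, 7.45 and 7.57 in the RapCA channel. The groups overlapped, and the normalized level of replicate 1 was high in the vector channel. The ratios were -0.67, -0.10, -0.036 and 0.22, a mean of -0.15 ± 0.37 (95% interval -0.50 to 0.21; limma adjusted p = 0.460). Without replicate 1 the mean was 0.027. Its dimmer probe, A_51_P203827, had ratios of -0.14, 0.30, 0.12 and 0.14, a mean of 0.10 ± 0.18 (95% interval -0.15 to 0.36; limma adjusted p = 0.463). That mean was 0.35 by the scanner software's ratio, and it ranged from 0.040 without replicate 2 to 0.19 without replicate 1. The means of the Adrb1 probes had opposite signs, and neither interval excludes 0.

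**Figure D3:**
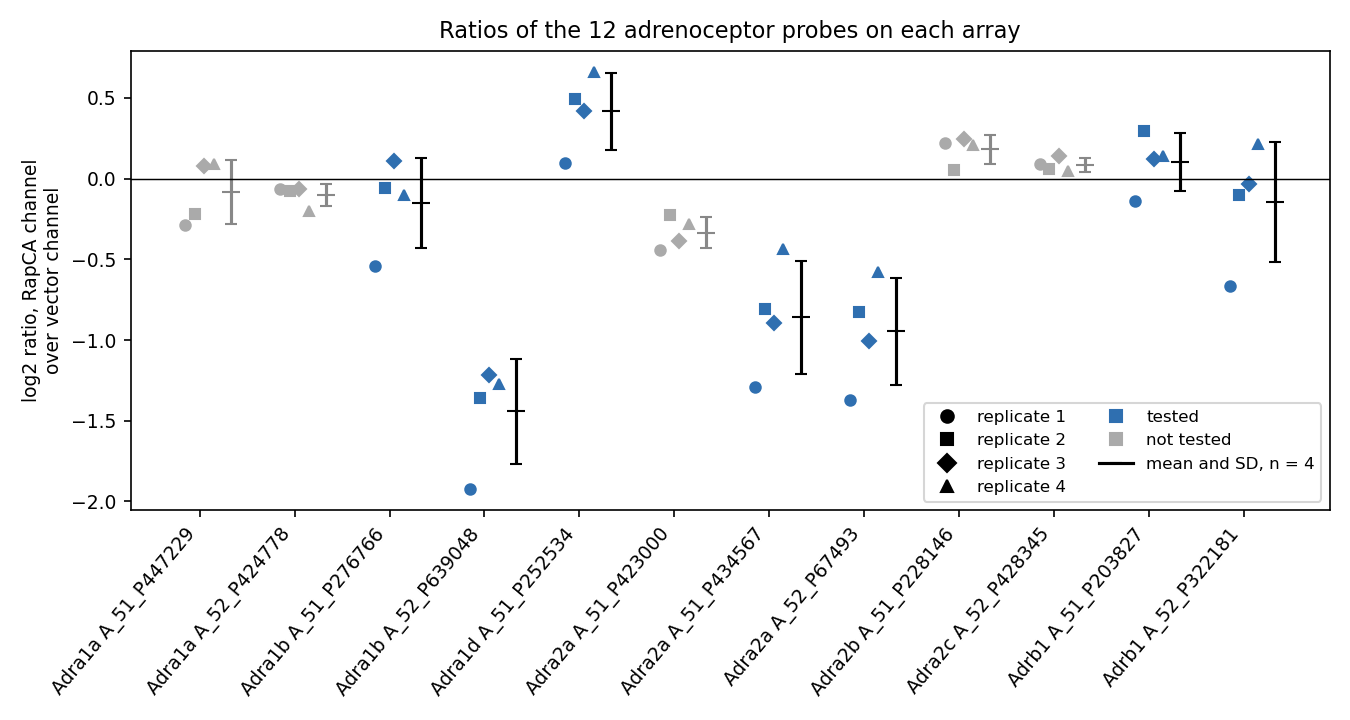
Log2 ratio of the RapCA channel over the vector channel for the 12 adrenoceptor probes, with 1 symbol per replicate, the mean and SD (n = 4) beside them, tested probes in blue and untested ones in grey. Replicate 1 has the lowest ratio at all 7 tested probes, and the ratios of the brighter Adra1b probe lie between -1.92 and -1.22.

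The tested probes shared a feature across arrays. Replicate 1 gave the lowest ratio at 7 of 7 tested adrenoceptor probes, against 39.4% of all 23485 probes measured on 4 arrays. This held for the 3 probes that fell (the brighter one of Adra1b and both of Adra2a), for the 1 that rose (Adra1d) and for the 3 that did not pass (the dimmer one of Adra1b and both of Adrb1). These 7 probes stand for only 4 genes. The feature was not particular to them. Among other amine receptors, replicate 1 was also lowest at Chrm1 (0.20), Drd3 (-1.30) and Chrm5 (-0.29), though not at Htr2b. In the same array the share of probes well above background in Cy5 was 51.3%, the lowest of the 4 arrays. As at Adra1d, its vector net signal was the lowest at the brighter Adra1b probe (2806) and at A_51_P434567 and A_52_P67493 of Adra2a (592 and 538). After normalization its vector levels at these probes were the highest of the arrays, at 12.12, 10.14 and 10.01. The part of that array's signal in the ratios was not tested, but the calls of the brighter Adra1b probe and of both bright Adra2a probes held without it, at -1.28, -0.71 and -0.80.

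Other genes with ratios most like those of each tested probe were named by the smallest root mean square difference over the 4 arrays, which describes likeness in 1 set of ratios only. For the brighter Adra1b probe they were Ifi27l2b, Ddit4l and Hsd3b4, at differences of 0.069 to 0.086. For Adra1d they were P2rx4, Smad3 and Fndc5, at 0.040 to 0.044. For the Adra2a probes they were Zbtb7a, H2-M3 and Ctsh at 0.079 to 0.0997, and Parp16, H2-M3 and Chac1 at 0.089 to 0.099. H2-M3 was thus near both Adra2a probes, at -0.91. For the dimmer Adra1b probe they were Abt1, Golt1b and Kcp, and for the Adrb1 probes Wdr91, Dapk1 and Nrf1, and Olfr175, Coa4 and Clpp.

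The genes that act with the receptors were read from 7 lists of 84 genes, of which 81 had a probe and 51 were tested. Of these, 23 had a higher and 6 a lower RapCA channel (13 and 7 with median centring), so that 56.9% passed, near the 53.9% over all genes. By direction, 28.9% of all genes were higher and 24.9% lower. The G protein alpha subunits, which couple the receptors to their effectors, were higher at 5 and lower at 1 of 9 tested, with a median of 0.37. Gnaq, the Gq subunit used by alpha1 receptors, was higher at 1.97 ± 0.13 (limma adjusted p = 2.59e-05), with ratios of 2.15, 1.85, 1.98 and 1.88. Gnai2 and Gnai1, Gi subunits used by alpha2 receptors, were higher at 1.32 ± 0.31 (0.87 with median centring) and 1.09 ± 0.38, and Gnas, the Gs subunit used by beta receptors, at 0.73 ± 0.17. A second Gnai1 probe had -0.011 ± 0.78 and did not pass, and Gnas did not pass with median centring (0.40). With median centring 3 of this list were higher and 2 lower.

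The beta and gamma subunits, which travel with the alpha subunit, were higher at 6 and lower at 1 of 10 tested, with a median of 0.46. Of all genes, 28.9% were higher, 24.9% lower and 53.9% called in either direction. Gnb5, Gng2 and Gng10 were higher at 1.09 ± 0.20, 1.08 ± 0.15 and 0.76 ± 0.10, the last not with median centring (adjusted p = 0.105). Gng5 was lower at -0.72 ± 0.09 (-1.47 with median centring), while its second probe had -0.10 ± 0.05 and did not pass. The receptor kinases and arrestins, which switch off and internalise activated receptors, gave 0 calls by limma among 6 tested, and also 0 at an unadjusted p under 0.05. Their median was -0.0053, and Grk6, Arrb1, Grk5 and Grk3 had -0.30 ± 0.30, -0.23 ± 0.22, 0.074 ± 0.139 and 0.048 ± 0.128. A second Arrb1 probe at -0.30 ± 0.07 did pass (limma adjusted p = 0.0339), array weights called 2 genes of the list lower, and median centring called 1, Grk6 at -0.58.

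Effector enzymes, the phospholipases C beta and the adenylyl cyclases, were higher at 6 and lower at 1 of 8 tested, with a median of 0.53. Among all genes 28.9% were higher and 24.9% lower. Under median centring the counts of effector enzymes were 2 and 1. The cyclases Adcy9 and Adcy6 were higher at 1.45 ± 0.21 and 0.96 ± 0.07. Of the phospholipases, Plcb3 was higher at 0.56 ± 0.19 (0.44 and not passing with median centring), and Plcb4 was lower at -0.55 ± 0.17 (-0.92 with an offset of 0 and -1.15 by the scanner software). Genes that make, carry and break down catecholamines were mostly too dim: 3 of 11 were tested, with 1 higher and 1 lower. Maoa, a monoamine oxidase, was lower at -1.21 ± 0.27 (limma adjusted p = 0.000312), with -0.82, -1.35, -1.39 and -1.29 on the arrays. Ddc, a decarboxylase of amine synthesis, entered the test through its RapCA channel, since its vector channel was well above background on 1 of 4 arrays. Its ratio of 0.67 ± 0.17 was called, but its size is not fixed: it was 1.47 with an offset of 0 and 2.61 by the scanner software, and the gene drops out where both channels must be above background. Pnmt, which makes adrenaline, had 0.035 ± 0.168 and did not pass.

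**Figure D4:**
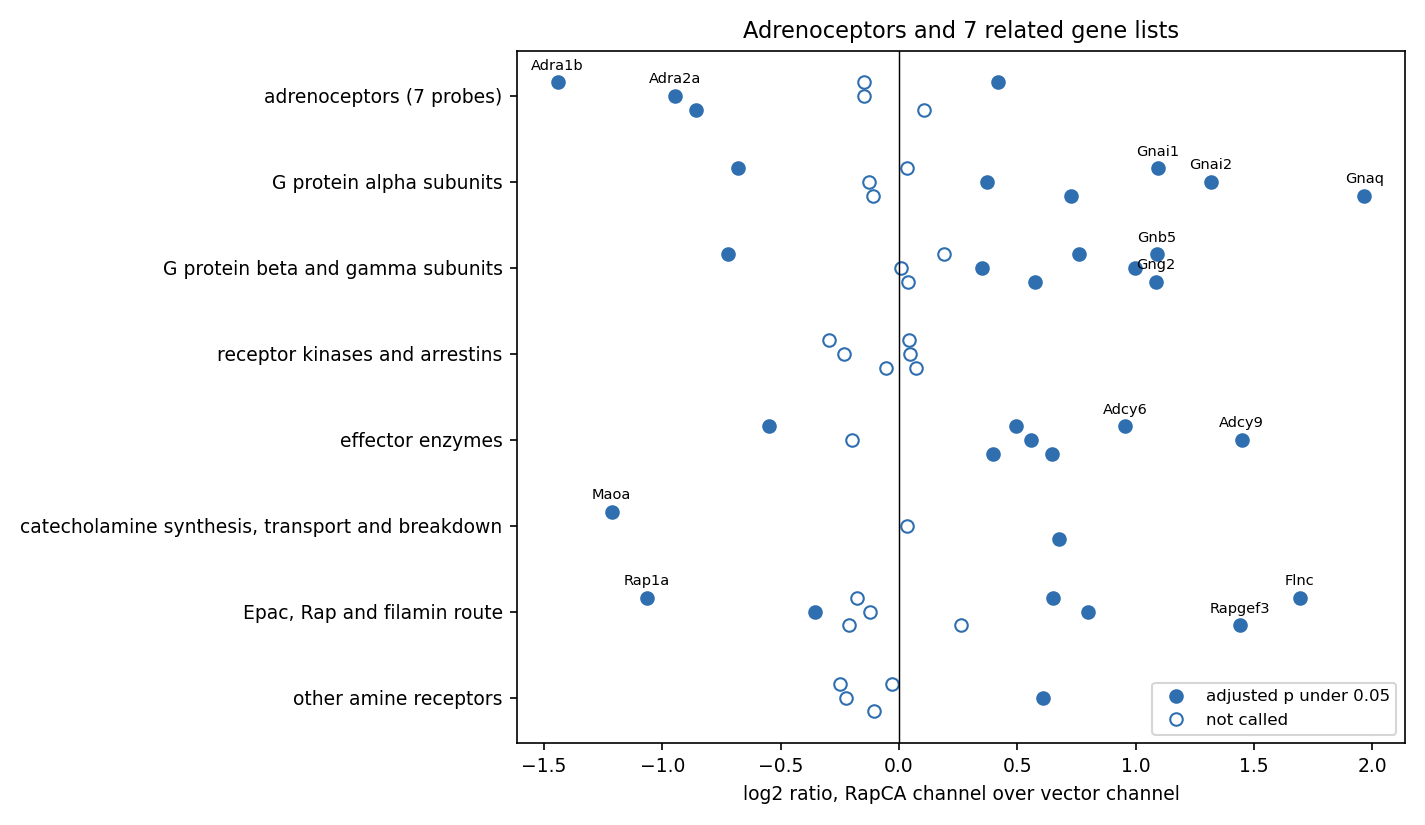
Log2 ratio of the RapCA channel over the vector channel for the 7 tested adrenoceptor probes and for the brightest tested probe of each gene in 7 related lists, filled where the adjusted p was under 0.05. Adra1b and Adra2a lie on the left, while 23 of the 29 filled points of the lists lie on the right.

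In the list of the Epac, Rap and filamin route, 4 of 10 tested were higher and 2 lower, with a median of 0.071 (2 and 1 with median centring). The shares over all genes were 28.9% higher and 24.9% lower. Rapgef3, which encodes the cyclic AMP sensor Epac1, was higher at 1.44 ± 0.38 (limma adjusted p = 0.000340), with 0.98, 1.30, 1.66 and 1.82. Flnc, which encodes filamin C, was higher at 1.69 ± 0.14, with other probes at 1.91 ± 0.26 and 0.58 ± 0.34. Rap1b, the paralogue of Rap1a, was higher at 0.80 ± 0.54, a call lost under median centring (0.60, adjusted p = 0.313), and Rap1a itself was 1 of the lower genes. Among the other amine receptors 1 of 5 tested was called, Chrm1, a muscarinic receptor, higher at 0.61 ± 0.28 (limma adjusted p = 0.00729). Its ratio was 1.04 with an offset of 0 and 1.26 by the scanner software. Htr2b, Drd3 and Chrm5 had -0.22 ± 0.21, -0.25 ± 0.72 and -0.10 ± 0.19; Htr2b did pass without replicate 1 (-0.29, limma adjusted p = 0.0297) and with array weights (-0.34).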

How the data were processed

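Total RNA in 4 two-colour Agilent arrays was read by the authors with the scanner software Agilent Feature Extraction (the file headers give version 10.7.3.1, the submitters' processing notes 10.9). The deposited intensity values are median brightness of spot and local background, with no normalization. The deposited log10 ratios (Cy5 over Cy3), in the scanner files and again in the series' own values, were background-subtracted, detrended and dye-normalized, per the file headers, and p-values deposited beside them, from the software's error model, were not used. The series' values differed from the scanner ratios by at most 5e-05 over 40929 probes of 1 spot.

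Here background was corrected with normexp (offset 50) and ratios normalized by loess within arrays, control spots without weight. Outlier spots (94 to 137 per array) were dropped, and repeat spots averaged; no spot was saturated. Channel levels are after Aquantile scaling. limma (lmFit, eBayes; at least 3 arrays) tested each probe's ratios against 0 over 23497 of 41174 probes, with Benjamini-Hochberg adjustment. Symbols came from RefSeq accessions (64.8% of probes); the files name another genome build. Errors are SDs; the number of arrays limits the precision.

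Members, lists and tests were chosen with earlier results of these data known. Named are all adrenoceptor probes, Rap1a, up to 4 smallest p of each list (1 listed gene is not reported here) and the 3 nearest probes by ratio. A simulation changed 200 of 23497 probes. There, log2 changes of 0.5, 1, 2 and 4 were recovered at 6%, 60%, 94% and 98%, with 3 false calls. These rates do not carry over to the arrays, where 49.6% of tested probes passed, because the adjustment is stricter when few probes change. The share of small changes missed on the arrays was not tested. Software was R 4.3.3, limma 3.58.1, statmod 1.5.0, data.table (1.17.8), Python 3.11.15, pandas 2.3.3 and matplotlib 3.10.9.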

Additional observations from a re-analysis of the deposited data

How the results depend on the processing

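Across 14 alternatives (offset, centring, scanner ratio, series table, filters, outlier spots, weights, intensity trend, unpaired channels and each array left out), 2 to 3 adrenoceptor genes and 20 to 35 list genes were called. The brighter Adra1b probe and both bright Adra2a probes kept direction and call throughout. Adra1d lost its call with median centring (0.32) and with unpaired channels (0.42), and ranged from 0.34 to 0.53 with an array left out. With array weights the dimmer Adra1b probe was 0.029 and the dimmer Adrb1 probe was called at 0.17 (limma adjusted p = 0.0249). The brighter Adrb1 probe ranged from -0.27 to 0.027 with an array left out. Of the list genes, Grk5, Grk3 and Pnmt were -0.10, -0.012 and -0.0051 with median centring, and Drd3 was 0.17 with array weights. With an array left out Grk3 ranged from -0.0089 to 0.094, Pnmt from -0.013 to 0.12 and Drd3 from -0.44 to 0.099. The causes were not tested. With median centring the median ratio over probes was -0.14 instead of 0.014, and it called 6546 probes against 11656, with 40.1% of them higher against 53.3%. Leaving out replicate 1 called 15738 probes, and array weights 17946. Signal over background limits the 5 untested probes.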

Other observations

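The ratios of the dim adrenoceptor probes depended on how background was treated. For the third Adra2a probe the mean ratio was -0.34 with an offset of 50, -0.78 with an offset of 0 and -1.44 by the scanner software, all in the direction of the bright probes of that gene. Adra2b stood at 0.18, 0.43 and 0.48 in the same order. Adra2c stood at 0.084, 0.41 and 0. Of the Adra1a probes, the brighter stood at -0.085, -0.25 and -0.19, and the other at -0.10, -0.46 and 0. The values of 0 belong to probes that the scanner software flagged positive and significant in neither channel on any array. They do not show that the channels were equal.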
